A study of Mus musculus with 39 samples.

Results

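Whole tibialis anterior muscle of mice given recombinant interleukin 17A (rIL-17A) was compared with that of mice given saline (PBS), 7 days after injury. All animals of the comparison were wild-type, and their hindlimb muscle had been injured with cardiotoxin, a toxin from cobra venom that kills fibres. Either solution was injected both into the peritoneal cavity and into muscle, while dose, schedule and age were not stated in these sources. Each group had 2 libraries (replicates 1 and 3), made from 2 ng of RNA each, and replicate 2 is not analysed here. The series' design text speaks of independent biological replicates. The features described are the 12864 genes, of 55011 gene symbols counted, that had 10 or more counts in at least 2 of the 4 libraries. Of these, 10573 reached 10 counts in all 4 libraries, 410 passed only through the rIL-17A libraries and 332 only through the PBS libraries. The members of these last 2 sets had to differ, since only the group in which they were high let them in. The other 35 libraries of the series are not part of the comparison, and 23 of them serve below as a time course of injured muscle.

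IL-17A is a cytokine secreted by T helper 17 cells and by γδ T cells. Its receptor, a complex of the Il17ra and Il17rc chains, acts through the adaptor Act1 (Traf3ip2) and Traf6 on NF-kB and C/EBP transcription factors, and its classical targets include chemokines that draw neutrophils and antimicrobial proteins. After cardiotoxin, phagocytes clear the dead fibres, and satellite cells, the stem cells of muscle, become myoblasts under Myf5 and Myod1, differentiate under Myog and fuse. New fibres first carry embryonic and perinatal myosin heavy chains (Myh3 and Myh8) and replace them with adult chains as they mature.

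The 4 libraries held 4797540 to 7966647 counts and 16951 to 19976 detected genes, fewer genes than any of the other 23 whole-muscle libraries (21496 to 35394). Within each group the replicates differed from one another by more than sampling noise (chi-square per degree of freedom of 16.7 for PBS and 11.7 for rIL-17A). Counts from the mitochondrial genome made up 9.24% and 8.50% of the PBS libraries and 4.71% and 3.43% of the rIL-17A libraries. The correlation of a gene's level with transcript length (Spearman, across genes) was −0.25 and −0.26 with PBS and −0.03 and 0.09 with rIL-17A, so the groups did not overlap in this property of the library. Muscle genes were abundant throughout: Des, the intermediate filament desmin, stood at 2418 and 3151 CPM with PBS and at 8025 and 7541 CPM with rIL-17A. Here CPM are counts relative to the scaled library size, and ± after a log2 difference is its standard error. A gene is called higher or lower when the adjusted p of edgeR's quasi-likelihood test was under 0.05, and a difference is always rIL-17A minus PBS. An exact permutation test of 2 against 2 libraries cannot give a p below 0.333 for a single value, so each call rests on a spread estimated over all genes.

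Of the 12864 genes, 4398 (34.2%) were called, 2327 (18.1%) as higher and 2071 (16.1%) as lower with rIL-17A. The median log2 difference was 1.56 among the higher genes, −1.15 among the lower ones and 0.04 over all genes tested. A change of more than 4-fold was fitted for 722 of the higher and 198 of the lower genes. In 4395 of the 4398 the rIL-17A values lay outside the range of the PBS values, as they did in 8980 (69.8%) of all genes. Without rIL-17A replicate 1 the counts were 1000 higher and 1005 lower, and without replicate 3 they were 1022 and 727. Without PBS replicate 1 they were 2740 and 2096, and without PBS replicate 3 they were 2683 and 2384. In each of these fits the lone library of a group was assumed to vary like the other group.

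Calls followed transcript length. In the shortest decile of genes 6.22% were higher and 36.4% lower with rIL-17A, and in the longest decile 30.8% were higher and 3.46% lower. Across 12695 genes with an annotated transcript, the Spearman correlation of the log2 difference with length was 0.35 and that with GC content 0.09. When each library's trend over length and GC content was taken out, an alternative chosen after seeing the data, the correlation with length became 0.05, and 1402 genes (10.9%) were higher and 1854 (14.4%) lower. Of these, 1316 of the higher and 1367 of the lower genes had been called in the same direction before. Values from that fit are given below as those with the trend removed.

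**Figure D1:**
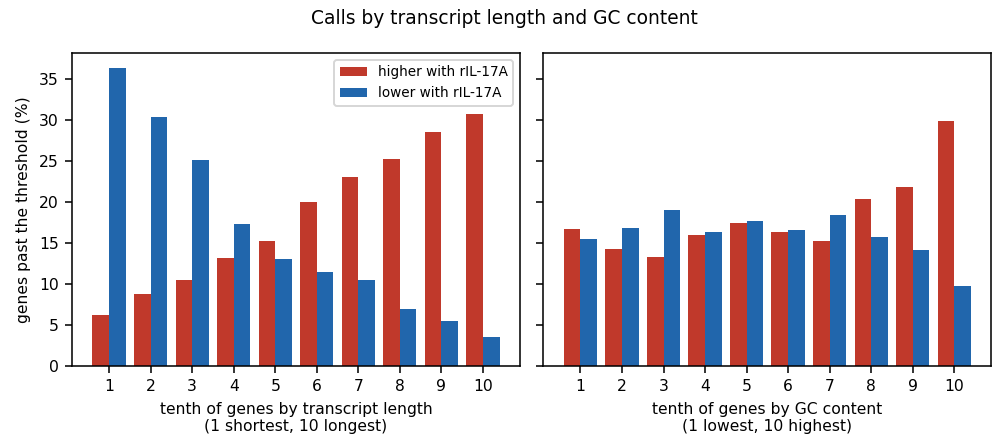
Percent of genes called higher (red) or lower (blue) with rIL-17A, by decile of transcript length (left) and of GC content (right), from the lowest (1) to the highest (10). The share of lower genes falls from 36.4% to 3.46% over the length deciles while that of higher genes rises from 6.22% to 30.8%.

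The genes of the IL-17 pathway itself showed few calls. Il17a and Il17f, the cytokine genes, had 0 counts in all 4 libraries; the injected protein would not appear in these counts. Il17ra, the shared receptor chain, stood at 9.21 and 11.2 CPM with PBS and at 8.86 and 9.50 CPM with rIL-17A, and Il17rc at 8.44 and 5.62 against 9.95 and 13.7 CPM. Neither differed by edgeR's test (log2 difference −0.15 ± 0.40, adjusted p = 0.795, and 0.74 ± 0.43, adjusted p = 0.201). Of 18 tested genes of receptor and signalling, 3 were higher (Traf6, Rela and Cebpd) and 1 lower (Nfkb1), shares of 16.7% and 5.56% beside 18.1% and 16.1% over all genes. With the trend removed 1 was higher (Cebpd) and 3 were lower (Nfkb1, Map3k7 and Usp25). With either rIL-17A library left out, Traf6 and Rela were not called as higher, and Cebpd had too few counts to be tested. Nfkb1 (−1.12) was then not called as lower either (−1.09 without replicate 1 and −1.16 without replicate 3). Cebpd, a C/EBP factor that IL-17 signalling is known to induce, had 3 and 1 counts with PBS and 19 and 23 with rIL-17A (3.63 ± 0.99, adjusted p = 0.013), but it met the count filter only through the rIL-17A libraries and so had to differ.

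Among 26 classical IL-17 target genes, 12 reached the filter, of which 1 was higher (Nos2) and 3 lower (Ccl2, Ccl7 and Mmp3). The call of Ccl2, a monocyte chemokine (−1.92, adjusted p = 0.0317), was lost with the trend removed (adjusted p = 0.18), with library size alone (0.0596), and without PBS replicate 1 (0.264), rIL-17A replicate 1 (0.207) or rIL-17A replicate 3 (0.0951). Nos2, the inducible nitric oxide synthase, had 0 and 1 counts with PBS and 97 and 69 with rIL-17A. The ratio of its summed counts, each relative to the scaled library sizes, was 202, with a 95% interval of 35.8 to 8024 that covers counting error only (log2 difference 7.29 ± 0.83, adjusted p = 7.36e-05). It met the count filter only through the rIL-17A libraries, so it had to differ, and its p is no independent support. The time course libraries held Nos2 at 0.160 to 11.4 CPM, so the PBS libraries stood at the low end and the rIL-17A libraries (16.8 ± 2.07 CPM, SD, n = 2, on the scale of all 27 libraries) above it. Mmp3, stromelysin 1, fell from 68.4 and 53.2 CPM to 14.9 and 15.8 CPM (−1.99 ± 0.27, adjusted p = 0.000205). Ccl7, another monocyte chemokine, fell from 13.3 and 9.83 to 1.87 and 1.90 CPM (−2.61 ± 0.52, adjusted p = 0.00237). Lcn2, the antimicrobial lipocalin 2, had 16 and 10 counts with PBS and 5 and 6 with rIL-17A and did not pass (−0.91 ± 0.91, adjusted p = 0.47). The neutrophil-drawing chemokine gene Cxcl1 had 9, 1, 1 and 0 counts, and Csf3, the granulocyte colony-stimulating factor, had none, so neither could be tested at this depth.

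Macrophage genes were mostly lower with rIL-17A. Of 14 general macrophage genes 8 were lower and none higher (57.1% beside 16.1% over all genes), with a median of −1.50. Of 17 tested genes of repair-phase macrophages 11 were lower and 1 higher, with a median of −1.48. Their summed levels were 1969 and 1566 CPM against 547 and 634 for the general list and 5468 and 5280 against 2489 and 2648 for the repair list. Both counts were nearly the same with the trend removed (9 and 11 lower), while without rIL-17A replicate 1 the general list had 5 lower genes. In whole muscle, fewer cells of a type and less RNA per cell cannot be told apart.

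Cd68, a lysosomal membrane glycoprotein of macrophages, stood at 142 and 123 CPM with PBS and at 19.3 and 27 CPM with rIL-17A. That is a log2 difference of −2.52 ± 0.25 (adjusted p = 2.43e-05), and both rIL-17A libraries lay far below both PBS libraries. Spp1 encodes osteopontin, a matrix protein that macrophages of injured muscle secrete. Its level was 302 and 785 CPM with PBS, a wide spread, and 41.0 and 34.6 CPM with rIL-17A (−3.84 ± 0.37, adjusted p = 2.17e-05). Gpnmb, a glycoprotein of lipid-laden phagocytes, fell from 178 and 238 to 40.9 and 47.7 CPM, and Trem2, their lipid receptor, from 52.6 and 28.1 to 8.40 and 7.22 CPM. Mmp12, macrophage elastase, stood at 22.4 and 169 CPM against 4.35 and 2.47 CPM (−4.77 ± 0.93, adjusted p = 0.00603). The Mmp12 call was lost without rIL-17A replicate 1 (adjusted p = 0.186), without replicate 3 (0.284) and with no filter on low counts (0.333). Aif1, Lyz2, Fcer1g and Ctsk were lower by 2.38, 1.83, 1.76 and 1.62 on the log2 scale.

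The list was not uniform, and genes usually found together parted. Csf1r, the receptor of the macrophage growth factor, stood at 59.2 and 63.0 against 60.6 and 75.0 CPM, and Adgre1, which encodes F4/80, at 28.5 and 28.9 against 19.1 and 28.1 CPM, and neither passed the test (adjusted p = 0.64 and 0.485). The 3 chains of complement C1q, which assemble into 1 protein and whose genes neighbour each other, went different ways. C1qb fell from 305 and 211 to 80.2 and 85.7 CPM (adjusted p = 0.00025), and C1qc rose from 24.3 and 17.6 to 54.7 and 75.0 CPM (adjusted p = 0.000876). C1qa stood at 84.4 and 82.9 against 47.3 and 62.1 CPM and missed the threshold (adjusted p = 0.0509).

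The windows around the starts of Cd68 and Spp1, the genes with the smallest p-values in the general and repair macrophage lists, are shown for reference, as RefSeq gives them on GRCm38.p6 from 250 bases before the start to 50 after it. Capitals mark matches to CANNTG, the E-box, and each sequence reads 5′ to 3′ along the gene's strand. The Cd68 window (chr11:69666121-69666420, minus strand) holds 1 E-box of the CAGCTG form and 2 matches to the AP-1 motif TGACTCA or its complement TGAGTCA. The Spp1 window (chr5:104434861-104435160, plus strand) holds 1 E-box and no AP-1 match.
Cd68: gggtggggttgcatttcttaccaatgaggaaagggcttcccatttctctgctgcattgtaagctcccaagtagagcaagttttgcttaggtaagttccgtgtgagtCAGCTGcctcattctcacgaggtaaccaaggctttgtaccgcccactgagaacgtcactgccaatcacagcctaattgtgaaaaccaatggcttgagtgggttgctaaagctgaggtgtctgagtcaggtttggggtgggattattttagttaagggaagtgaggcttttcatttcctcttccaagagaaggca
Spp1: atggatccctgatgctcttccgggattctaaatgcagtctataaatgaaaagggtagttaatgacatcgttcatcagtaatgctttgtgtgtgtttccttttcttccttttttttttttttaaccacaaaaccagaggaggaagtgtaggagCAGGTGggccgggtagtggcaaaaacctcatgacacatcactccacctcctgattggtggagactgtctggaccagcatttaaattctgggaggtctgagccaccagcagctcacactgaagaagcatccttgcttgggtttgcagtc

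Of 13 tested genes of MHC class II and dendritic cells, which present antigen, 6 were lower, 2 were higher and 5 did not pass. With the trend removed 5 were lower and 1 higher, and without rIL-17A replicate 3 the counts were 3 and 1. H2-Ab1, a class II beta chain, fell from 738 and 666 to 262 and 299 CPM (−1.32 ± 0.20, adjusted p = 0.000443), and H2-Aa and H2-Eb1 fell by 1.12 and 1.18. Cd74, the invariant chain that escorts these same proteins, rose from 108 and 176 to 296 and 374 CPM (1.24 ± 0.25, adjusted p = 0.00221). Other leukocytes left little signal. Of 19 neutrophil genes 5 were tested, and 1, Clec4d, was lower, a call lost with either rIL-17A library left out. Clec4d met the count filter only through the PBS libraries, so it had to differ. It could not be tested with 1 of these left out. Among the untested genes of the neutrophil list, Ly6g, Ngp, Ltf, Elane and Mpo had 0 counts in all 4 libraries. Some others had a few, such as Il1r2 with 15 and 0 counts with PBS and 7 and 1 with rIL-17A. Hdc had 1 and 1 against 10 and 4. By edgeR's test none of the 9 inflammatory monocyte genes and none of the 3 tested T cell genes (of 17) passed. At an unadjusted p under 0.05 the counts were 0 and 1, and DESeq2 called 0 in either list. The other 14 T cell genes had too few counts for a test at this depth.

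**Figure D2:**
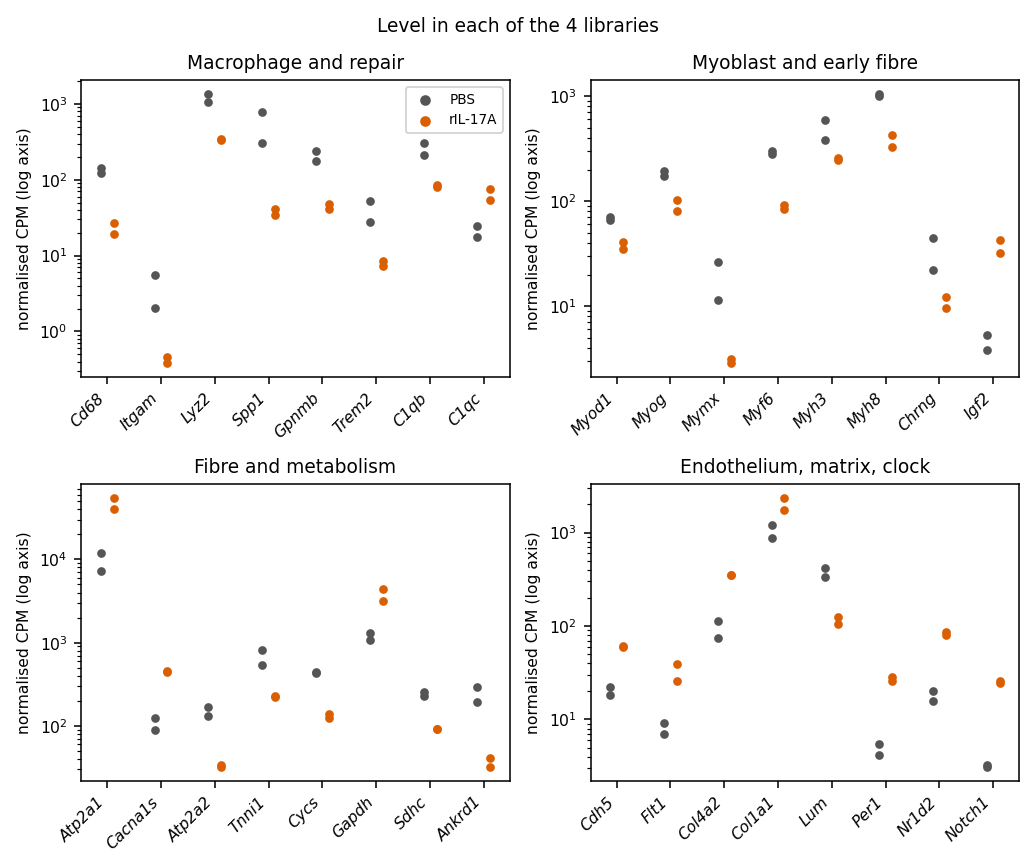
Normalised CPM (log axis) of 32 genes in each library, PBS in grey and rIL-17A in orange, each point 1 library. Cd68, Spp1 and C1qb sit lower and C1qc higher in both rIL-17A libraries, and Myog, Myh3 and Myh8 sit lower while Atp2a1, Gapdh, Cdh5 and Per1 sit higher.

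Genes of myoblast differentiation and of early fibres were lower more often than higher. Of 27 genes, 11 were lower and 3 higher (40.7% and 11.1%), with a median of −0.35, and the trend-removed counts were 12 and 2. Without rIL-17A replicate 1 the list had 6 lower genes. Myf6, the regulator of late differentiation known as MRF4, stood at 282 and 301 CPM with PBS and at 83.8 and 91.6 CPM with rIL-17A (−1.73 ± 0.20, adjusted p = 8.96e-05). Mymx, the fusion protein myomixer, fell from 26.5 and 11.4 to 3.11 and 2.85 CPM (−2.66 ± 0.49, adjusted p = 0.00145). Perinatal myosin Myh8 stood at 1053 and 1009 against 330 and 425 CPM (−1.45 ± 0.21, adjusted p = 0.000323). The rIL-17A libraries were below the PBS libraries in each of these genes, with no overlap.

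Differences of Myog, Myod1 and embryonic myosin were smaller. Myog was at 194 and 175 CPM with PBS and at 79.9 and 103 CPM with rIL-17A (−1.01 ± 0.21, adjusted p = 0.00324), a call lost without rIL-17A replicate 1 (adjusted p = 0.0574). Myod1 stood at 66.4 and 70.7 against 40.7 and 35.3 CPM (−0.85 ± 0.23, adjusted p = 0.0129), and Myh3 at 593 and 384 against 248 and 255 CPM (−0.96 ± 0.23, adjusted p = 0.00618). Both calls were lost without rIL-17A replicate 1 (adjusted p = 0.058 and 0.0509) and without replicate 3 (0.147 and 0.0606). The fetal subunit of the acetylcholine receptor, Chrng, fell by 1.62 and the fetal troponin Tnnt2 by 1.72. The Chrng call was lost without rIL-17A replicate 1 (log2 difference −1.49). Igf2, an insulin-like growth factor of developing muscle, went the other way, from 3.84 and 5.31 to 32.2 and 42.7 CPM (3.04 ± 0.35, adjusted p = 8.72e-05). On the scale of all 27 whole-muscle libraries it averaged 44.5 ± 7.81 CPM (SD, n = 2) with rIL-17A, and its highest value in the 23 time course libraries was 7.96 CPM.

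The Myog window (chr1:134289754-134290053, plus strand) is shown because E-boxes are the sites that the factors of this family bind, and it holds 2 matches to CANNTG.
Myog: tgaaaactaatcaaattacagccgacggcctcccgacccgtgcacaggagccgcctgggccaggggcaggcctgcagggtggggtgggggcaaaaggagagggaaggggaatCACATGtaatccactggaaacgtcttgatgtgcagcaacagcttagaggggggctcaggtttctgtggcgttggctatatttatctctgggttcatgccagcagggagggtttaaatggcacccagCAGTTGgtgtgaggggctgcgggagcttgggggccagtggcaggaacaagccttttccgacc

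Satellite cell genes did not move as 1 group. Of 13 tested genes 4 were higher and 2 lower (30.8% and 15.4%, beside 18.1% and 16.1% over all genes). With the trend removed 1 was higher and 3 lower. With either rIL-17A library left out 2 were higher and none lower. Pax7, which marks these stem cells, stood at 7.93 and 4.53 against 2.33 and 3.61 CPM and did not pass (−1.08 ± 0.60, adjusted p = 0.181), but passed with the trend removed (−1.83, adjusted p = 0.0355). Itga7, an integrin of muscle cells, rose from 68.7 and 72.4 to 160 and 185 CPM, a call that was lost with the trend removed (0.49, adjusted p = 0.0948). Desmin was higher by 1.48 ± 0.23 (adjusted p = 0.000462), and fibres express it too.

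Genes of mature fast fibres were called in both directions. Of 29 genes, 9 were higher and 7 lower, with a median of 0.09, and with the trend removed 3 were higher and 2 lower. Left-out libraries moved these counts to 5 and 4 without PBS replicate 1, 7 and 1 without PBS replicate 3, 4 and 5 without rIL-17A replicate 1, and 6 and 0 without rIL-17A replicate 3. Atp2a1, the calcium pump of fast fibres, rose from 7162 and 12066 CPM to 54930 and 40634 CPM (2.31 ± 0.29, adjusted p = 0.000143). Cacna1s, the voltage sensor of excitation and contraction, rose from 89.3 and 123 to 462 and 445 CPM (2.09 ± 0.22, adjusted p = 3.9e-05). Both calls remained with the trend removed (1.84 and 1.40). Those of the giant genes did not: Ttn, titin, went from 2.21 to 0.31, Neb, nebulin, from 1.32 to 0.32, and the calcium release channel Ryr1 from 1.43 to 0.01 (adjusted p = 0.338, 0.314 and 0.981). Skeletal actin, Acta1, was lower at 56459 and 49682 against 99136 and 111626 CPM (−0.99 ± 0.24, adjusted p = 0.00766), a call lost without any 1 of PBS replicate 1, PBS replicate 3 or rIL-17A replicate 3 (adjusted p = 0.137, 0.179 and 0.0613).

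Slow fibre genes were lower or did not pass. Of 13 tested genes, 7 were lower and none higher (53.8%), with a median of −0.84, and 5 were lower with the trend removed. Atp2a2, the slow and cardiac calcium pump, fell from 168 and 133 to 32.5 and 34.2 CPM (−2.18 ± 0.23, adjusted p = 4.01e-05). The 2 calcium pumps thus moved in opposite directions. Tnni1 and Tnnc1, slow troponins that early regenerating fibres also carry, fell by 1.57 and 1.94 (adjusted p = 0.000347 and 0.000552). Without rIL-17A replicate 1 the list had 4 lower genes.

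Genes of fibre maintenance and stress were divided, with 6 of 21 higher and 7 lower, or 4 and 6 with the trend removed. Ankrd1, an ankyrin repeat protein of stressed and regenerating fibres, fell from 294 and 194 to 31.7 and 40.7 CPM (−2.76 ± 0.26, adjusted p = 1.84e-05). Sln, sarcolipin, an inhibitor of the calcium pump, fell by 2.14 ± 0.27. Flnc, filamin C of the Z-disc, rose from 139 and 184 to 666 and 959 CPM (2.33 ± 0.24, adjusted p = 3.48e-05), and the ubiquitin ligase Trim63, MuRF1, rose by 1.86 ± 0.26. At the neuromuscular junction, receptor subunit Chrna1 fell by 1.39 ± 0.22, and Lrp4, the agrin receptor of the fibre, rose from 3.45 and 6.87 to 29.5 and 33.2 CPM (2.62 ± 0.38, adjusted p = 0.000357).

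Respiratory chain genes were called lower more often than higher. Of 30 nuclear-encoded subunits 20 were lower and none higher (66.7%), with a median of −0.73. Of 12 mitochondrially encoded genes 9 were lower and 1 higher, with a median of −1.26. With the trend removed, 11 of the nuclear and 4 of the mitochondrial genes were lower, and these are short transcripts (median 1791 and 870.5 bases). Without rIL-17A replicate 3, 5 of the nuclear and 6 of the mitochondrial genes were lower. Cycs, cytochrome c, stood at 437 and 441 CPM with PBS and at 138 and 126 CPM with rIL-17A (−1.73 ± 0.20, adjusted p = 7.68e-05). Sdhc, a subunit of succinate dehydrogenase, fell from 228 and 254 to 93.0 and 92.5 CPM. Both calls remained with the trend removed (−1.70 and −1.43). Cytochrome b, mt-Cytb, fell from 27814 and 26281 to 8834 and 4587 CPM (−2.01 ± 0.30, adjusted p = 0.000359). The exception was mt-Nd5, at 3253 and 3960 against 6551 and 5906 CPM (0.79 ± 0.22, adjusted p = 0.0139), a call lost without PBS replicate 1 (adjusted p = 0.192) or rIL-17A replicate 1 (0.106).

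Genes of glycolysis and glycogen gave 7 higher and 4 lower of 22, with a median of 0.04, and 4 higher and 1 lower with the trend removed. They gave 8 and none without PBS replicate 3, 4 and 2 without rIL-17A replicate 1, and 4 and none without rIL-17A replicate 3. Gapdh, a glycolytic enzyme often taken as a reference gene, rose from 1066 and 1305 to 4472 and 3143 CPM (1.68 ± 0.24, adjusted p = 0.000284). Gys1, glycogen synthase of muscle, rose by 1.38 ± 0.25 (adjusted p = 0.00126). Most ribosomal protein genes did not pass: of 26 cytosolic ones 2 were higher and 4 lower, and 8 were higher and 1 lower with the trend removed. Yet Rps2 rose from 82.0 and 51.8 to 381 and 327 CPM (2.4 ± 0.25) while Rpl3 fell from 387 and 271 to 115 and 117 CPM (−1.50 ± 0.22). Both proteins belong to the same ribosome, and both calls remained with the trend removed (2.7 and −1.20). Ribosomal protein genes have many pseudogene copies, and how reads shared with them were counted is not given in the sources used here, so both values are uncertain.

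Of 15 tested endothelial genes, which mark the lining of vessels, 8 were higher and 1 lower (53.3% beside 18.1% over all genes), with a median of 0.93, and 6 were higher and 2 lower with the trend removed. Without rIL-17A replicate 1 the list had 2 higher genes, and without replicate 3 it had 5. Cdh5, VE-cadherin of endothelial junctions, stood at 22.5 and 18.3 CPM with PBS and at 60.8 and 59.3 CPM with rIL-17A (1.56 ± 0.25, adjusted p = 0.000695). Flt1, a receptor for vascular endothelial growth factor, rose from 7.03 and 9.21 to 38.9 and 25.8 CPM (2.00 ± 0.34, adjusted p = 0.000971). Kdr, the other main receptor, rose by 1.42 ± 0.27 (adjusted p = 0.00161), a call lost without rIL-17A replicate 1 (adjusted p = 0.0501). Cldn5, the tight junction protein of the same cells, was lower, at 71.2 and 79.0 against 47.6 and 42.9 CPM (−0.73 ± 0.22, adjusted p = 0.0234), and this call was lost without either rIL-17A library (adjusted p = 0.0918 and 0.195).

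Matrix genes were called in both directions. Of 30 genes 4 were higher (Col1a1, Col4a1, Col4a2 and Col15a1) and 10 lower. The counts were 7 and 4 without PBS replicate 1, 4 and 3 without rIL-17A replicate 1, and 1 and 14 with the trend removed. Col4a2, a chain of basement membrane collagen, rose from 114 and 74.4 to 355 and 352 CPM (1.91 ± 0.23, adjusted p = 0.000116), but did not pass with the trend removed (0.65, adjusted p = 0.0536). Lum, the small proteoglycan lumican, fell from 422 and 333 to 105 and 124 CPM (−1.72 ± 0.21), and Dcn, decorin, by 1.30 ± 0.24. Postn, periostin of wound matrix, fell from 1070 and 480 to 201 and 289 CPM (−1.66 ± 0.32, adjusted p = 0.00176).

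The 2 chains of type I collagen, which combine in 1 fibril protein, parted. Col1a1 stood at 1204 and 882 CPM with PBS and at 1745 and 2358 CPM with rIL-17A (0.98 ± 0.23, adjusted p = 0.00649), but at −0.10 (adjusted p = 0.753) with the trend removed. Its call was also lost without PBS replicate 3 (adjusted p = 0.0521) and without rIL-17A replicate 3 (0.0844). Col1a2 stood at 1989 and 1195 against 805 and 1120 CPM (−0.73 ± 0.26, adjusted p = 0.0445), and lost its call without PBS replicate 1 or either rIL-17A library (adjusted p = 0.374, 0.273 and 0.0719). Of 18 genes of fibro-adipogenic progenitors, the matrix-making stromal cells of muscle, 3 were higher and 5 lower. These are shares of 16.7% and 27.8%, beside 18.1% and 16.1% over all genes. Of 9 tenocyte genes 4 were lower (44.4%). The tenocyte list had 1 lower gene without PBS replicate 1 or either rIL-17A library.

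Circadian and glucocorticoid-responsive genes were called higher more often than lower. Of 20 tested genes 7 were higher and 2 lower, and 6 and 4 with the trend removed. Without rIL-17A replicate 1 the list had 3 higher genes, and without replicate 3 it had 4. Zbtb16, a zinc finger factor that glucocorticoids are known to induce, had 0 and 4 counts with PBS and 144 and 84 with rIL-17A (5.98 ± 0.74, adjusted p = 0.000123). It met the count filter only through the rIL-17A libraries and so had to differ. Per1, a repressor of the clock, rose from 5.50 and 4.21 to 25.8 and 28.7 CPM (2.48 ± 0.36, adjusted p = 0.000328), and the clock repressor Nr1d2 from 19.9 and 15.9 to 80.2 and 85.9 CPM (2.21 ± 0.25, adjusted p = 6.92e-05). Both calls remained with the trend removed (1.45 and 1.93). The other higher genes were Nr1d1, Dbp, Pdk4 and Klf15. Klf15, a factor that glucocorticoids induce in muscle, rose from 4.09 and 3.28 to 10.9 and 18.6 CPM (1.99 ± 0.46, adjusted p = 0.00559), a call lost without rIL-17A replicate 3 (0.133). The 2 lower genes are also known to be induced by glucocorticoids. Mt1, a metallothionein, fell from 91.3 and 59.0 to 25.3 and 22.6 CPM (−1.65 ± 0.27), and Tsc22d3, known as GILZ, from 143 and 193 to 110 and 81.7 CPM (−0.81 ± 0.23, adjusted p = 0.0171), a call lost without rIL-17A replicate 3 (0.22). The hour at which the muscles were taken is not given in the sources used here, and its part in the result was not tested.

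The Per1 window (chr11:69098699-69098998, plus strand) is shown since clock factors bind the CACGTG form of the E-box, and it holds 1 match to that form among 2 to CANNTG.
Per1: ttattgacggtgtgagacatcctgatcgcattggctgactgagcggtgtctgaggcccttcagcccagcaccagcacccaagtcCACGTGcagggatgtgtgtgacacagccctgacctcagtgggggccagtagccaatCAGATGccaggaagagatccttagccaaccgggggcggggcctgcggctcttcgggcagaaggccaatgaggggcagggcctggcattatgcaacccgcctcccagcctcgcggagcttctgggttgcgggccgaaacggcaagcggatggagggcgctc

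The further lists described here gave calls in both directions, where 18.1% of all genes were higher and 16.1% lower. Of 32 cell cycle genes 4 were lower and 2 higher (12.5% and 6.25%), or 2 and 1 with the trend removed, and Mki67, the proliferation marker, did not pass (−0.19 ± 0.36, adjusted p = 0.723). Without PBS replicate 3 the list had 10 lower genes, and without rIL-17A replicates 1 and 3 it had 1 and none. Cdkn1a, the p21 inhibitor that halts the cycle, fell from 305 and 213 to 62.8 and 83.2 CPM (−1.83 ± 0.24, adjusted p = 0.00019). Ccng1, cyclin G1, like Cdkn1a a known target of p53, rose from 169 and 233 to 726 and 627 CPM (1.75 ± 0.22, adjusted p = 0.000138). Of 16 genes of heat shock and the unfolded protein response, 7 were lower and 1 higher. Hspa5, the chaperone BiP, fell from 427 and 420 to 206 and 172 CPM (−1.16 ± 0.20), and the higher gene was Xbp1, a regulator of that response (1.05 ± 0.22). Without either rIL-17A library 2 of this list were lower. Of 24 interferon-stimulated genes 2 were higher and 3 lower, or 2 and 1 with the trend removed. Of 15 genes of NF-kB feedback 4 were higher and 1 lower, but 1 was higher and 2 lower with the trend removed, and 2 and 1 were higher without rIL-17A replicates 1 and 3.

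Signalling genes included some low but clear rises. Notch1, a receptor that keeps satellite cells undifferentiated and patterns vessels, stood at 3.07 and 3.28 CPM with PBS and at 26.1 and 24.9 CPM with rIL-17A (3.00 ± 0.38, adjusted p = 0.000139). Wnt9a rose from 2.81 and 1.40 to 14.5 and 16.7 CPM (2.85 ± 0.49), and Sfrp4, a secreted Wnt antagonist, fell from 83.6 and 34.3 to 10.3 and 11 CPM (−2.47 ± 0.38). Among 19 tested genes of the Notch and Wnt pathways 5 were higher and 4 lower, or 3 and 5 with the trend removed, and with either rIL-17A library left out 2 were higher and 1 lower. In the main fit the shares of this list were 26.3% and 21.1%, beside 18.1% and 16.1% over all genes. Of 16 immediate early genes 3 were higher and 4 lower (18.75% and 25%), or 2 and 4 with the trend removed. These shares of higher genes were not far from that of all genes. Fos, a subunit of AP-1, fell from 24.2 and 19 to 2.80 and 6.27 CPM (−2.27 ± 0.44, adjusted p = 0.00185), and Ier2 rose from 1.41 and 2.65 to 17.3 and 16.9 CPM (3.08 ± 0.48, adjusted p = 0.000511).

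**Figure D3:**
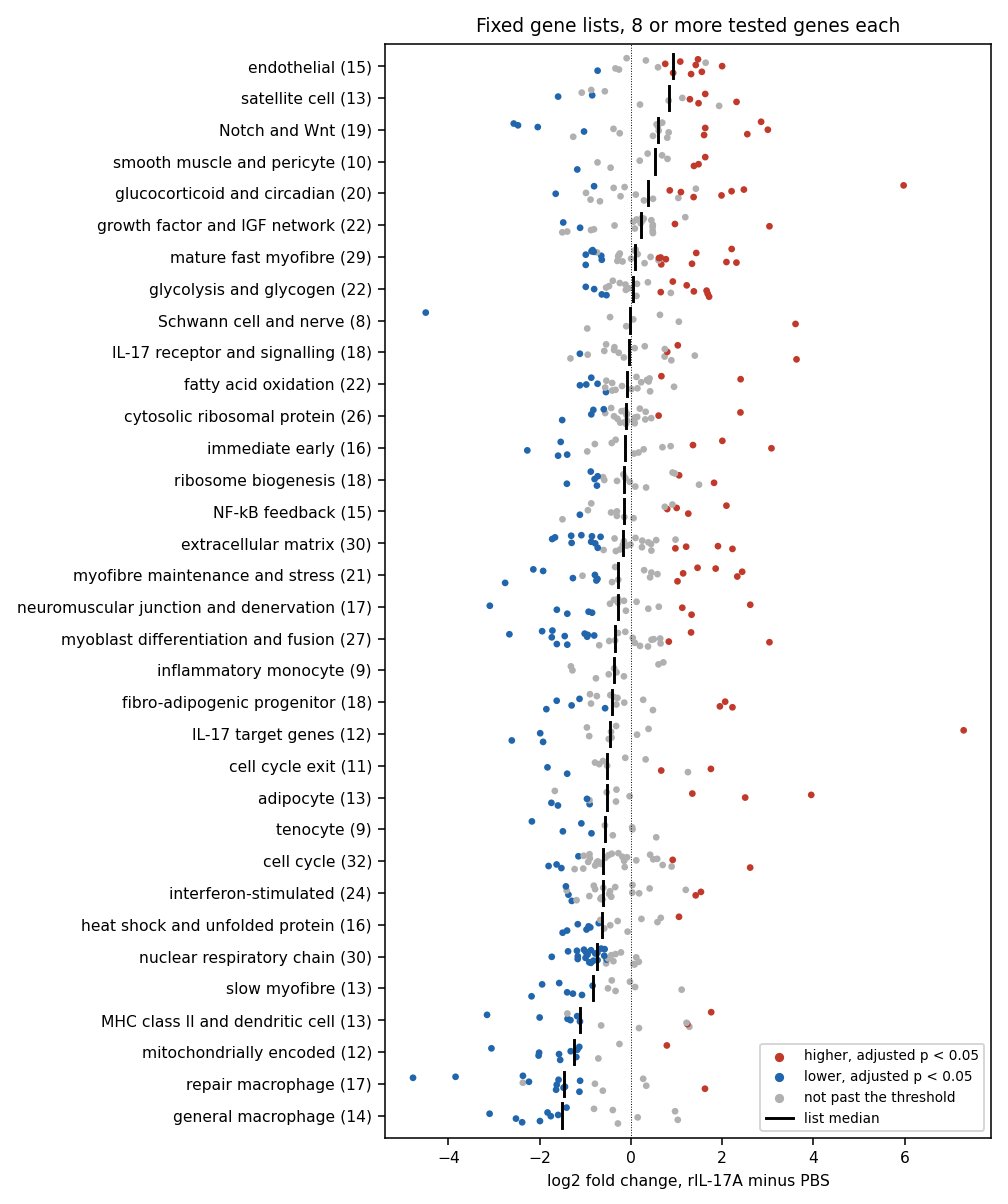
Log2 difference (rIL-17A minus PBS) of each tested gene in the lists with 8 or more tested genes, the number in parentheses. Red and blue points passed as higher and lower, grey points did not, and the black bar is the list's median, lowest for general macrophage genes (−1.50) and highest for endothelial genes (0.93).

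The largest rises were genes that the PBS libraries held at next to nothing. Anxa11, a calcium-dependent membrane-binding annexin, had 2 and 5 counts with PBS and 660 and 469 with rIL-17A, which is 0.256 and 0.780 against 103 and 89.1 CPM (7.54 ± 0.41, adjusted p = 4.74e-07). Trim72, also called MG53, which patches torn fibre membranes, had 3 and 7 counts against 579 and 458 (6.93 ± 0.39, adjusted p = 4.74e-07). Cnot3, a subunit of the CCR4-NOT deadenylase, had 1 count in each PBS library and 122 and 110 with rIL-17A, a ratio of 141 (95% interval 38.6 to 1172). Zbed3 and Dgkq each had 1 count over the PBS libraries, with ratios of 96.1 (16.8 to 3844) and 92.5 (16.1 to 3699). Prkcz2, Slc9a7, Sema4c and Pm20d2 had none, and were at least 31.2-fold, 26.0-fold, 24.7-fold and 23.1-fold higher, each taken relative to 3 counts summed over both PBS libraries. The annotation lists Prkcz2 as a processed pseudogene, so its reads may belong to a near-identical gene. These genes passed the filter through rIL-17A alone and so had to differ. Their p-values and intervals are no independent support, and none of them could be tested with 1 rIL-17A library left out.

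The largest falls, beside Mmp12 and Spp1, included several genes of leukocytes at low levels. Dpep2 had 48 and 129 counts with PBS and 5 and 2 with rIL-17A (−4.42 ± 0.75, adjusted p = 0.000882). Fcgr4, an activating Fc receptor of myeloid cells, fell from 11.3 and 5.15 to 0.466 and 1.14 CPM (−3.36 ± 0.73), a call lost without rIL-17A replicate 1 (adjusted p = 0.0534). Rgs1, a regulator of chemokine receptor signals, fell from 5.50 and 5.77 to 0.777 and 0.190 CPM (−3.44 ± 0.83), a call lost without rIL-17A replicate 3 (adjusted p = 0.0783). Dpep2, Fcgr4 and Rgs1 met the count filter only through the PBS libraries and so had to differ. Their p-values are no independent support. Rbm43 and Zfp54 fell by 3.39 and 3.79.

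The differences were then set beside a time course of injured muscle in separate libraries, none of which enters the comparison above. These came from wild-type (WT) and Tcrd-DTR mice at days 1, 3, 7 and 14 (n = 3 each, n = 2 for DTR at day 7), all given diphtheria toxin, which removes γδ T cells in DTR mice because these cells carry the toxin's receptor. WT day 7 libraries take part in all 3 contrasts used, so those contrasts are not independent of one another. From day 7 to day 14, 757 of 18264 genes (4.14%) rose and 2408 (13.2%) fell. Of the genes higher with rIL-17A, 389 of 2320 (16.8%) rose over that interval and 66 (2.84%) fell. Fitted on its own libraries, the contrast gave 654 of 2255 (29.0%, beside 8.16% of all genes) and 49 (2.17%), and with DESeq2's size factors 576 (24.8%, beside 6.09%) and 34 (1.47%). Of the genes lower with rIL-17A, 1203 of 2064 (58.3%) fell and 1 rose. Here the alternatives gave smaller shares. On its own libraries 963 of 2020 fell (47.7%, beside 12.6% of all genes), and with DESeq2's size factors 906 (43.9%, beside 8.88%). The 18264 genes include many that are not members of the rIL-17A comparison. The median differences of the higher and lower genes over that interval were 0.30 and −0.86, beside −0.03 over all genes. That of the lower genes was −0.66 on its own libraries and −0.67 with DESeq2's size factors.

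Gene by gene, the Spearman correlation of the rIL-17A difference with the day 14 minus day 7 difference was 0.57 over 12807 genes, 0.47 to 0.53 within deciles of transcript length, and 0.47 with the length and GC trend of the rIL-17A comparison removed. The day 14 minus day 7 difference itself had a correlation of 0.24 with length. With the difference between DTR and WT at day 7 the correlation was −0.52, within length deciles −0.55 to −0.40. The correlation of level with length in single day 7 libraries was −0.22 and −0.23 for DTR and −0.13, −0.16 and −0.07 for WT. It was −0.25 and −0.26 for PBS, so DTR stood nearer to PBS in this property than WT did. Its part in the likeness of DTR and PBS levels was not tested. In that contrast 117 genes (0.641%) were higher and 251 (1.37%) lower in DTR muscle. The genes higher with rIL-17A held 2 of the higher and 126 of the lower ones, and the genes lower with rIL-17A held 71 and none. Fitted on its own libraries alone, the contrast called 6 genes higher and 86 lower. From day 3 to day 7, when 3262 genes (17.9%) rose and 3474 (19%) fell, the correlation was −0.08. These correlations are across genes, which are not independent replicates, and are given as descriptions.

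**Figure D4:**
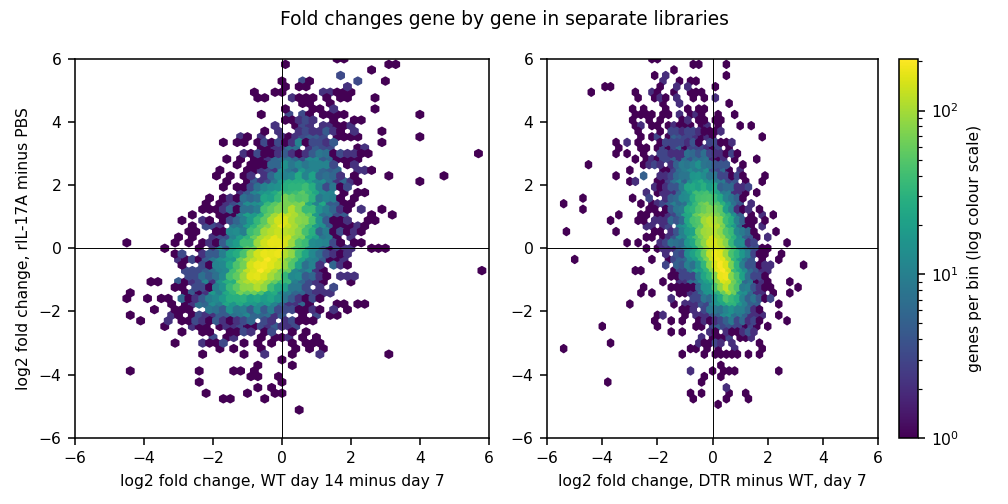
Log2 difference with rIL-17A (vertical axis) against that of WT day 14 minus day 7 (left) and DTR minus WT at day 7 (right), with genes counted in hexagonal bins on a log colour scale. The cloud tilts upward on the left (Spearman 0.57) and downward on the right (−0.52), and genes beyond the axis limits are not drawn.

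The same lists were counted in the time course. From day 7 to day 14, 13.2% of all genes fell. So did 9 of 14 general macrophage genes, 13 of 18 repair macrophage genes and 14 of 27 genes of myoblast differentiation. Of slow fibre genes 7 of 14 fell, of nuclear respiratory genes 12 of 30, and of mitochondrially encoded genes 9 of 11. Other lists fell as well, with fewer lower genes under rIL-17A. Of interferon-stimulated genes 14 of 24 fell (3 of 24 were lower with rIL-17A), and of cell cycle genes 14 of 32 (4 of 32). Of cytosolic ribosomal protein genes 19 of 26 fell (4 of 26), and of matrix genes 16 of 31 (10 of 30). Of 16 endothelial genes 1 was higher and 1 lower, and circadian and glucocorticoid genes had 5 in each direction of 21.

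Levels on the scale of all 27 whole-muscle libraries placed the 2 groups on either side of the WT day 7 muscle for many genes. Cd68 averaged 623 ± 170 CPM (SD, n = 3) in WT muscle at day 3, 36.1 ± 6.21 at day 7 and 5.77 ± 2.72 at day 14. It stood at 167 ± 17.4 CPM (n = 2) with PBS and at 27.5 ± 5.81 CPM with rIL-17A, so both PBS libraries lay above all WT day 7 libraries, while the rIL-17A range overlapped theirs. Atp2a1 averaged 33984 ± 2574 CPM in WT muscle at day 7 and 63348 ± 1970 at day 14, and 12155 ± 4351 with PBS against 57029 ± 13408 with rIL-17A. Here PBS lay below and rIL-17A above the day 7 mean. Cycs, at 349 ± 95.5 CPM in WT at day 7 and 165 ± 7.92 at day 14, was 555 ± 2.36 with PBS and 157 ± 13.9 with rIL-17A. Myh8 was 588 ± 310 in WT at day 7, 1305 ± 43.2 with PBS and 449 ± 68.7 with rIL-17A.

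Of the 2327 genes higher with rIL-17A, both rIL-17A libraries lay above all 3 WT day 7 libraries in 1680 (72.2%, beside 23.9% of all 12864 genes), and both PBS libraries below all 3 in 1326 (57.0% beside 18.6%). Of the 2071 lower genes, the rIL-17A libraries lay below all 3 in 1280 (61.8% beside 21.2%) and the PBS libraries above all 3 in 1324 (63.9% beside 21.2%). These genes were chosen for the difference between the 2 groups, so the shares are descriptions. A smaller set left the whole range of the time course. The rIL-17A libraries exceeded all 23 in 431 of the higher genes (4.00% of all members did so) and fell below all 23 in 85 of the lower ones (1.09%). The PBS libraries fell below all 23 in 368 of the higher genes (3.51%) and exceeded them in 241 of the lower ones (2.66%). Anxa11 and Trim72 belonged to this set. Anxa11 ran from 0.802 to 35.7 CPM over the time course and averaged 114 ± 14.1 CPM with rIL-17A, and Trim72 ran from 0.485 to 33.1 and averaged 105 ± 5.09. In DTR muscle at day 7 they averaged 1.19 ± 0.549 and 0.884 ± 0.564 CPM (n = 2), close to the PBS means of 0.655 ± 0.467 and 0.933 ± 0.631. Per1, by contrast, reached 65.4 ± 13.3 CPM in WT at day 14, above its 32.4 ± 1.63 with rIL-17A. WT mice had received the toxin and PBS mice saline injections, so treatment and experiment cannot be told apart between these sets of libraries.

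**Figure D5:**
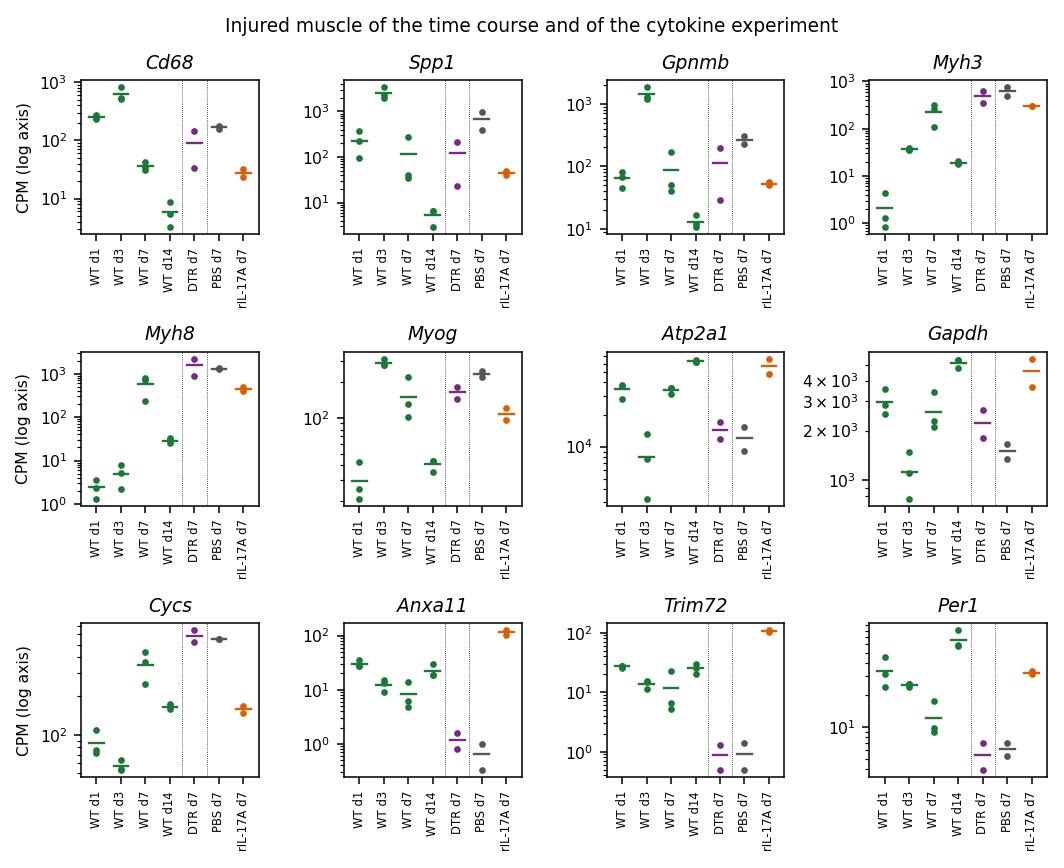
CPM (log axis) of 12 genes in WT muscle at days 1, 3, 7 and 14, DTR muscle at day 7, and the PBS and rIL-17A muscles at day 7, each point 1 library and each bar a group mean. Cd68 and Spp1 with rIL-17A sit near WT day 7 with PBS above, Atp2a1 and Gapdh with rIL-17A near WT day 14, and Anxa11 and Trim72 with rIL-17A above every other library.

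Sequence motifs in the promoter windows were counted over the 9858 members with a RefSeq window, on both strands. CANNTG, which includes CAGCTG and CACGTG, was present in 61.5% of the windows of higher genes and 65.2% of lower ones, beside 63.6% of members and 72.1% of all 27025 windows, CACGTG in 10.3% and 10.7% beside 10.5%, and the AP-1 motif in 3.32% and 3.81% beside 3.5%. A general form of the NF-kB site was present in 71.0% of the windows of higher genes and 63.0% of lower ones. Its shares were 67.3% of members and 50.4% of all windows. Why higher and lower genes differed in this motif was not tested. A form of the C/EBP site was rare, at 0.338% and 0.307% beside 0.243% of members. A match is a run of letters in this window and does not show that a factor binds there.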

How the data were processed

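The authors deposited whole-number read counts per gene, which per the submitters' processing notes came from STAR 2.7.3a and featureCounts (Subread 2.0.0) on mm10. For the kit, annotation and strand setting nothing is stated in these sources, so reads of overlapping or antisense genes cannot be told apart. The 4 libraries held 4797540 to 7966647 counts, and intervals and floors cover counting error only, since reads without molecular identifiers are not independent molecules.

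Genes with 10 or more counts in at least 2 of the 4 libraries were fitted with edgeR 4.0.16 (R 4.3.3, TMM scaling, robust quasi-likelihood test), and p-values were adjusted over all genes by Benjamini-Hochberg with a threshold of 0.05. The time course was fitted separately on its 23 libraries after filterByExpr. Levels beside the time course were scaled over all 27 whole-muscle libraries. Alternatives were other scalings and filters, DESeq2 1.42.0, a replicate block, each library left out, and a fit of all 27 libraries. The removal of trends over transcript length and GC content (splines with 5 degrees of freedom, GENCODE M21 lengths) and the fit without mitochondrially encoded genes were chosen after seeing the data. The replicate numbers did not pair the samples (correlation of deviations −0.07). The fit was tested on simulated data of 12425 genes. It recovered 22 of 100 changes of 2-fold and 64 of 100 changes of 4-fold, with 1 false call. A gene that did not pass may therefore still differ. The simulation changed a far smaller share of genes than the 34.2% called in the comparison itself. Its 1 false call cannot be carried over to that comparison.

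The members and lists were chosen with earlier results of these data known. Named genes were the 10 largest changes in each direction (2 values outside the range of the other group, higher mean of at least 5 CPM), for each list up to 3 called genes of smallest p, and a set that was always named. Others, among them Trem2, Aif1, C1qa, C1qc, Cd74, Mymx, Chrng, Tnnt2, Acta1, Ryr1, Neb, Trim63, Sln, mt-Nd5, Col1a2, Postn, Cldn5, Mt1, Tsc22d3, Klf15, Map3k7, Usp25, Adgre1, Csf1r, Ctsk and Mki67, were chosen after their values were seen.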

Additional observations from a re-analysis of the deposited data

How the results depend on the processing

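Against 2327 higher and 2071 lower genes, DESeq2's size factors gave 2310 and 2142, no filter on low counts 2479 and 2006, DESeq2 1929 and 1789, and the fit of all 27 libraries 2469 and 2576. Library size alone gave 2579 and 1502, so that 63.2% of calls were higher in place of 52.9%, and moved the median of all genes from 0.04 to 0.19. With the replicate block, where samples share only a number, 2231 were higher and 1831 lower. Leaving out 1 library gave 1000 to 2740 higher and 727 to 2384 lower genes, with the lowest values without rIL-17A replicate 1 (1000 and 1005) and replicate 3 (1022 and 727). With the length and GC trend removed 1402 were higher. In the time course, the median of the higher genes from day 7 to day 14 (0.30) was 0.48 with DESeq2's size factors, which moved the median of all genes from −0.03 to 0.15, and 0.48 when the contrast was fitted on its own libraries. Their median in DTR minus WT at day 7 (−0.28) was −0.41 on its own libraries, and from day 3 to day 7 (−0.08) it was −0.23 with no filter. Of 150 named genes that were called, 90 kept their call under every alternative that was run, and 35 and 36 lost it without rIL-17A replicate 1 and 3. A gene that a fit could not test was counted as keeping its call in that fit. Genes that passed the filter through 1 group alone could thus not lose it when a library of that group was left out, and 90 is an upper figure. The log2 fold change of Col1a1 (0.98) became −0.10 with the trend removed. That of Csf1r (0.15, adjusted p = 0.64) became −0.47 (adjusted p = 0.14) with the trend removed. That of Fn1, which encodes fibronectin (−0.15, adjusted p = 0.733), became 0.36 without PBS replicate 1, 0.18 without rIL-17A replicate 1 and −0.61 without replicate 3. The cause was not tested. Genes under 10 counts in 3 or more of the 4 libraries could not be tested at this depth.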

Other observations

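Gene families were also counted by name, chosen after their values were seen and given with no test, beside 18.1% higher and 16.1% lower over all genes. Of 38 tested subunits of the proteasome, which degrades ubiquitin-tagged proteins, 27 were lower and 1 higher (median −0.95), and 17 were lower with the length and GC trend removed. Of 12 lysosomal cathepsins, among them Ctsk of the macrophage list, 8 were lower and none higher (median −1.23), and 9 were lower with the trend removed. Of 17 subunits of the V-ATPase, the proton pump of lysosomes, 8 were lower and 3 higher, and the counts were the same with the trend removed. Of 78 mitochondrial ribosomal proteins 44 were lower and 3 higher, and 32 were lower with the trend removed.

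Of 50 Nduf genes of respiratory complex I, some of which are also in the respiratory list, 41 were lower and 1 higher, a count that became 15 with the trend removed. Of 9 annexins 5 were lower and 1, Anxa11, was higher. Of 304 Zfp zinc finger genes 58 were higher and 10 lower, a share of higher genes near that of all genes, and 35 and 12 with the trend removed. Of 25 Kmt and Kdm genes, which write and erase histone methylation, 10 were higher and 1 lower, but 3 each with the trend removed. Of 34 collagen genes, which include those of the matrix list, 11 were higher and 3 lower, and with the trend removed 3 were higher and 8 lower.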
